A study of Mus musculus with 2 samples.

Results

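The secreted goblet mucus proteins were taken as 9 of the 32285 genes counted in 2 single-nucleus RNA sequencing libraries of mouse colon: Muc2, Fcgbp, Clca1, Zg16, Tff3, Agr2, Spink4, Retnlb and Reg4. The rule that chose them uses gene symbols and no measured value, but the list was made with earlier results of these data known. Their unique molecular identifiers (UMIs, each of which counts 1 captured RNA molecule) were summed over nuclei with 400 to 5000 detected genes and at most 10% mitochondrial UMIs. The nuclei were sorted into cell classes without use of these 9 genes. One library came from WT mice and the other from their HIF-1α KO littermates (Ncr1cre+ Hif-1αfl+/fl+). In the latter, Cre recombinase under the Ncr1 promoter deletes the floxed Hif1a gene in NKp46+ cells, which are natural killer cells and other innate lymphoid cells, and the epithelium is not a target. Mice of both groups, 8 to 12 weeks old, drank 2% dextran sodium sulfate (DSS), which injures the colon lining, for 3 days followed by 4 days of recovery. This was done 4 times, and frozen colon from day 28 was used. Each library, called WT and knockout from here on, was a pool of 3 animals, so that each genotype had 1 sample. No test between genotypes was therefore made and no p-value is given, and all intervals below are 95% intervals that cover counting error only, not differences between animals.

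Goblet cells are the secretory cells of the colon epithelium that pack mucin into large granules and release it to build the mucus layer between the tissue and the bacteria of the gut. MUC2 is the gel-forming mucin that makes the net of this layer, and FCGBP, CLCA1 and ZG16 are abundant proteins of the secreted mucus. TFF3, SPINK4, RETNLB and REG4 are small secreted proteins of goblet and related secretory cells, and AGR2 works inside the endoplasmic reticulum, where it is needed for the folding of mucin. In colitis, goblet cells are known to empty their granules and to lose stored mucus.

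The promoters are shown because the members follow different patterns among goblet-like nuclei, described further down, and because the mucus genes are classical targets of factors of goblet cell fate. RefSeq promoter entries (GRCm38.p6) matched 4 of the 9 members, namely Muc2, Fcgbp, Agr2 and Reg4, and Clca1, Zg16, Tff3, Spink4 and Retnlb had no entry. The 250 bases before each RefSeq start are printed 5′ to 3′, all on the plus strand, from chr7:141690090-141690339 for Muc2, chr7:28070986-28071235 for Fcgbp, chr12:35992675-35992924 for Agr2 and chr3:98221906-98222155 for Reg4. Capitals mark TATAA (the core of a TATA box), CAGCTG (an E-box, the kind of site that basic helix-loop-helix factors such as ATOH1 bind) and TGTTTNC (the core bound by forkhead factors), each searched on both strands.
Muc2: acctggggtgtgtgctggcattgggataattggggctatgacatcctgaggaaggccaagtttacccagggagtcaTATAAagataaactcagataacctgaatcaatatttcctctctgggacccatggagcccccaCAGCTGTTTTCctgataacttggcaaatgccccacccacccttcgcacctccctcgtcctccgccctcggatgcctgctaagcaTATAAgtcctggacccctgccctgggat
Fcgbp: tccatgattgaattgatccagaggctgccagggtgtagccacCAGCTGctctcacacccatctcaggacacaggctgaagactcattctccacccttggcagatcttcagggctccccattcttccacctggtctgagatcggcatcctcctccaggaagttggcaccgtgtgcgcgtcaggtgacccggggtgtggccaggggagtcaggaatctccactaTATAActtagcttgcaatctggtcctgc
Agr2: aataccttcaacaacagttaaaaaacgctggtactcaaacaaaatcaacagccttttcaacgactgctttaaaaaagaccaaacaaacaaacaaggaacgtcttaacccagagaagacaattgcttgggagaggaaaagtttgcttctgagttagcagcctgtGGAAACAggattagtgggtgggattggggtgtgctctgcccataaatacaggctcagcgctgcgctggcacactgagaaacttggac
Reg4: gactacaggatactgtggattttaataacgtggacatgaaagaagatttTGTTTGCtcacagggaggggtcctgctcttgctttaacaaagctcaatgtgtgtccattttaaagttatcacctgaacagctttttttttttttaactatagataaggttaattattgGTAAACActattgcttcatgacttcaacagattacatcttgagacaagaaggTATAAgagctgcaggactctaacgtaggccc
A TATAA lay 28 bases before the start of Muc2 and of Fcgbp and 31 bases before that of Reg4, and Muc2 held another 174 bases upstream. This motif was found in 22.8% of the 32851 promoters of the same length. CAGCTG was found in Muc2, 112 bases upstream, and in Fcgbp, 208 bases upstream, compared with 13% of all promoters. The forkhead core, present in 17.8% of all promoters, was found in Muc2 (108 bases upstream, where it overlaps the E-box), in Agr2 (87 bases) and at 2 places in Reg4 (201 and 83 bases). ACGTG, the core of a hypoxia response element, was searched as well and is not in capitals. It was found in Reg4, 223 bases upstream, and in 16.6% of all promoters. These are matches of letters and not measured binding sites.

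After the filter, 4884 WT and 4702 knockout nuclei remained, with 13259430 and 23605502 UMIs. The knockout library was the deeper one, with a median of 4197 UMIs per nucleus compared with 2058.5, and the libraries shared 3 cell barcodes. Levels are therefore given as counts per 1000000 UMIs of the same nuclei (CPM), and every log2 ratio between genotypes has the knockout on top. UMIs are not corrected for gene length, so levels compare 1 gene between sets of nuclei and not genes with each other. Goblet-like nuclei were named from 13 markers outside the 9 genes, among them Bcas1, Spdef, Atoh1 and Fer1l6, and all 13 of 13 were at least 2-fold higher there than in non-epithelial nuclei in both libraries. They numbered 576 in the WT and 942 in the knockout library, or 11.8% (10.9 to 12.7%) and 20.0% (18.9 to 21.2%) of nuclei, a log2 ratio of 0.76 (0.63 to 0.90). Unnamed clusters held 25.3% and 10.6%, and the share of goblet-like nuclei without them was not computed. Absorptive enterocyte-like nuclei also had a larger share in the knockout library (log2 ratio 0.71, 0.57 to 0.86), whereas non-epithelial nuclei had a smaller one (-0.41, -0.55 to -0.28). Ncr1 had 1 and 0 UMIs, where a count of 0 allows up to 3, and Hif1a 2284 and 4699 UMIs in all nuclei, so the deletion in NKp46+ cells could not be seen in these libraries.

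Over all nuclei, 45838 WT and 98729 knockout UMIs belonged to the 9 genes, and most of them lay in goblet-like nuclei. The share in goblet-like nuclei was 63.7% (63.3 to 64.2%) in the WT and 66.5% (66.2 to 66.8%) in the knockout library. Fcgbp and Clca1 were the members most tied to goblet-like nuclei, with 75.6% and 76.4% of their UMIs there in the WT and 77.1% and 77.7% in the knockout library. Reg4 and Retnlb were the least tied, with 47.6% and 41.6% in the WT and 48.5% and 43.1% in the knockout library, apart from Agr2 in the WT, which had 46.6% there and 59.7% (58.4 to 60.9%) in the knockout library. The summed level in goblet-like nuclei was 16550 CPM in the WT and 13490 in the knockout library. In the 12 other named classes it lay between 927 CPM (enteric neuron and glia-like) and 1711 CPM (lymphatic endothelial-like) in the WT and between 1242 CPM (enteric neuron and glia-like) and 3426 CPM (immune-like) in the knockout library. Every class other than goblet-like thus sat at a low level in both libraries, and in each of these 12 classes the level was higher in the knockout library.

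**Figure D1:**
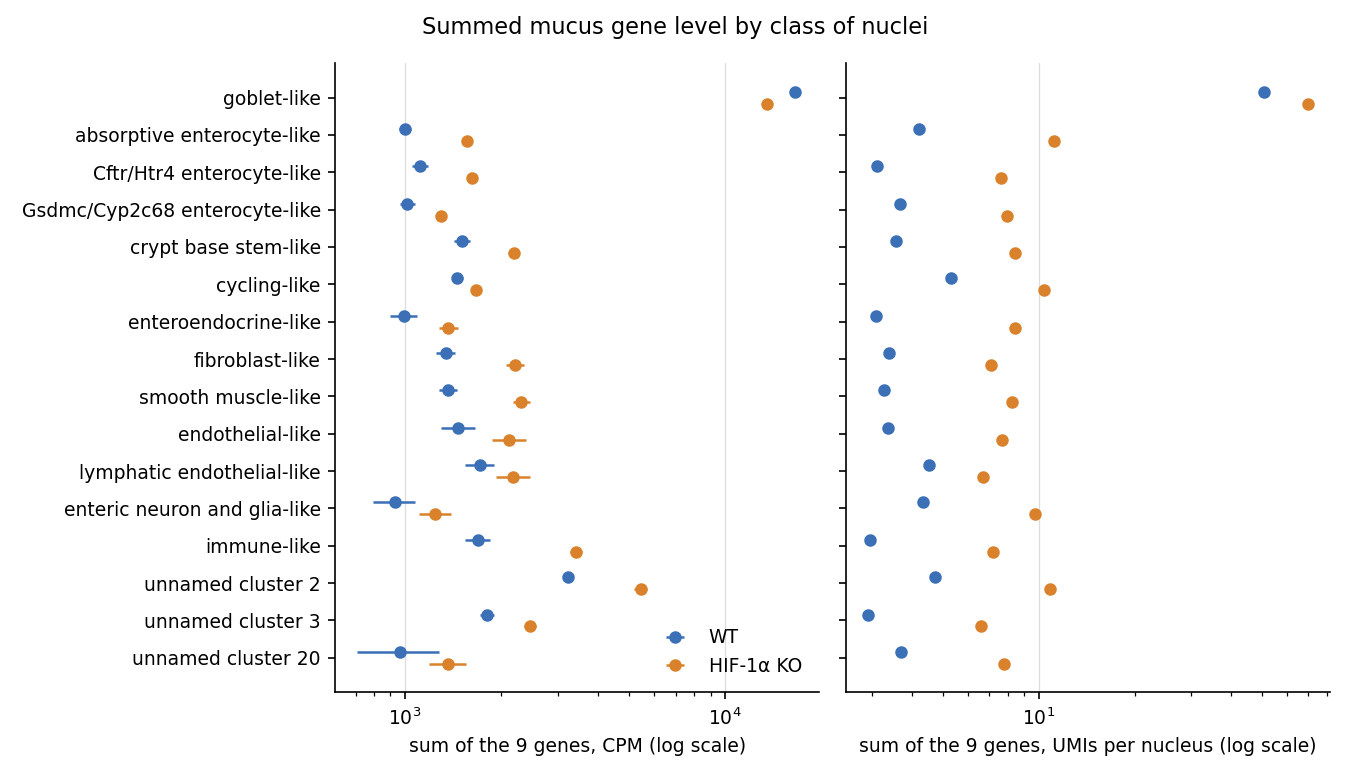
Summed level of the 9 mucus genes in each class of nuclei, in counts per 1000000 UMIs with 95% Poisson intervals (left) and in UMIs per nucleus (right), both on log axes, for the WT (blue) and the HIF-1α KO library (orange). Goblet-like nuclei stand at 16550 and 13490 CPM, the 12 other named classes at or below 3426 CPM, and unnamed cluster 2 at 3231 and 5447 CPM.

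Non-epithelial nuclei (fibroblast-like, smooth muscle-like, endothelial-like, lymphatic endothelial-like, enteric neuron and glia-like and immune-like, 897 in the WT and 649 in the knockout library) should not express these genes, and their level was taken as the background of free RNA. The sum of the 9 genes was 1399 (1350 to 1450) CPM there in the WT and 2457 (2388 to 2527) CPM in the knockout library, a log2 ratio of 0.81 (0.75 to 0.88). Per nucleus this was 3.41 and 7.49 UMIs, at median depths of 1864 and 2110 UMIs. At least 1 Muc2 UMI was found in 62.0% and 84.0% of these nuclei, or in 37.7% and 56.2% after each nucleus had been thinned to 1000 UMIs, for which 0 WT and 15 knockout nuclei were too shallow. A Muc2 UMI in a nucleus of this tissue therefore did not mark a goblet cell in either library. A difference of at least 1.5-fold counted as a call, among genes with at least 50 UMIs in both libraries together. By this rule 7 of 8 members tested were higher in the non-epithelial nuclei of the knockout library and 0 were lower, where 13.3% of the 9468 genes tested were higher and 6.19% were lower. The largest ratios were those of Tff3, from 13.7 to 54.1 CPM (log2 ratio 1.98, 1.38 to 2.61), and Spink4, from 63.1 to 223 CPM (1.82, 1.55 to 2.11). Among the markers of other classes in goblet-like nuclei, those of each of these non-epithelial classes had a lower sum in the knockout library. The 8 fibroblast markers, 0 of which were without a UMI there, summed to 105 CPM in the WT and 30.8 CPM in the knockout library. The 9 smooth muscle markers summed to 267 and 175 CPM and the 11 immune markers to 313 and 224 CPM. Epithelial markers went both ways, with 1934 and 2286 CPM for the 11 absorptive enterocyte markers and 1677 and 1412 CPM for the 6 Cftr/Htr4 enterocyte markers. The 4 markers of interstitial cells of Cajal, which named no cluster, summed to 335 and 615 CPM. The part of nuclei isolation in these differences was not tested.

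In the sum of the 9 genes, enterocyte-like nuclei lay below this background in CPM. In Cftr/Htr4 enterocyte-like nuclei, which carry the markers used in the study for mucus-producing enterocytes, the sum of the 9 genes was 1110 CPM in the WT and 1613 CPM in the knockout library, lower than in non-epithelial nuclei of the same library by log2 ratios of -0.33 (-0.43 to -0.24) and -0.61 (-0.67 to -0.55). Per nucleus the sum was 3.10 and 7.64 UMIs, or 0.91 and 1.02 times the non-epithelial value, although these nuclei were deeper (medians of 2473.5 and 4132 UMIs). A Muc2 UMI was found in 61.8% and 88.9% of them, close to the non-epithelial shares, and in 35.2% and 39.4% after thinning. In absorptive enterocyte-like nuclei, the deepest of these classes (medians of 3526 and 5949 UMIs), the sum was 999 and 1563 CPM, and per nucleus it was 1.23 and 1.49 times the non-epithelial value. The make-up of the sum in Cftr/Htr4 enterocyte-like nuclei was close to that of the background for Muc2 and not for Agr2. Muc2 made up 33.1% of the UMIs of the 9 genes in Cftr/Htr4 enterocyte-like and 33.8% in non-epithelial nuclei of the WT library, and 29.8% and 29.7% in the knockout library. Agr2 made up 11.8% (9.97 to 13.8%) compared with 6.47% (5.62 to 7.40%) in the WT and 9.37% (8.48 to 10.3%) compared with 6.75% (6.06 to 7.49%) in the knockout library. As a level in CPM, Agr2 was above the non-epithelial value in Cftr/Htr4 enterocyte-like nuclei of the WT (log2 ratio 0.53, 0.20 to 0.85). It was not above it in the knockout library (-0.13, -0.35 to 0.09). Per nucleus it was 1.656 and 1.415 times the non-epithelial value. Agr2 is known in crypt cells beyond the goblet lineage. In absorptive enterocyte-like nuclei Muc2 had the larger share, with 38.7% (36.7 to 40.8%) in the WT and 33.0% (32.1 to 34.0%) in the knockout library.

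Crypt base stem-like and cycling nuclei departed from the background in make-up more than in sum, which was 1507 and 2185 CPM in the former and 1457 and 1669 CPM in the latter. Spink4, a secreted protein with a Kazal-type protease inhibitor domain, made up 12% (10.2 to 13.9%) of the UMIs of the 9 genes in crypt base stem-like nuclei and 11.6% (10.3 to 12.9%) in cycling nuclei of the WT library, compared with 4.51% (3.80 to 5.30%) in non-epithelial nuclei. In the knockout library the shares were 12.7%, 12.3% and 9.09%, which is the same order with a smaller gap. As a level, Spink4 stood at 180 CPM in crypt base stem-like and 169 CPM in cycling nuclei of the WT, above the 63.1 CPM of non-epithelial nuclei. In the knockout library the values were 277, 206 and 223 CPM, so that cycling nuclei were no longer above the background in CPM. Per nucleus they still held 1.88 times the non-epithelial Spink4 UMIs there, and 3.99 times in the WT. Zg16 went the other way in cycling nuclei, with 17.9% and 17.0% of the UMIs of the 9 genes compared with 30.5% and 24.1% in non-epithelial nuclei. Tff3, the trefoil peptide, had 27.3 CPM in the WT and 79.4 CPM in the knockout library in 1 of the 2 absorptive enterocyte-like clusters (cluster 8, led by Ifit1bl1 and Clca4a and picked out after its values were seen). A single nucleus held 16 of its 30 UMIs in the WT and another held 80 of its 241 UMIs in the knockout library. Without them the level was 12.85 and 53.2 CPM, close to the 13.7 and 54.1 CPM of non-epithelial nuclei.

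**Figure D2:**
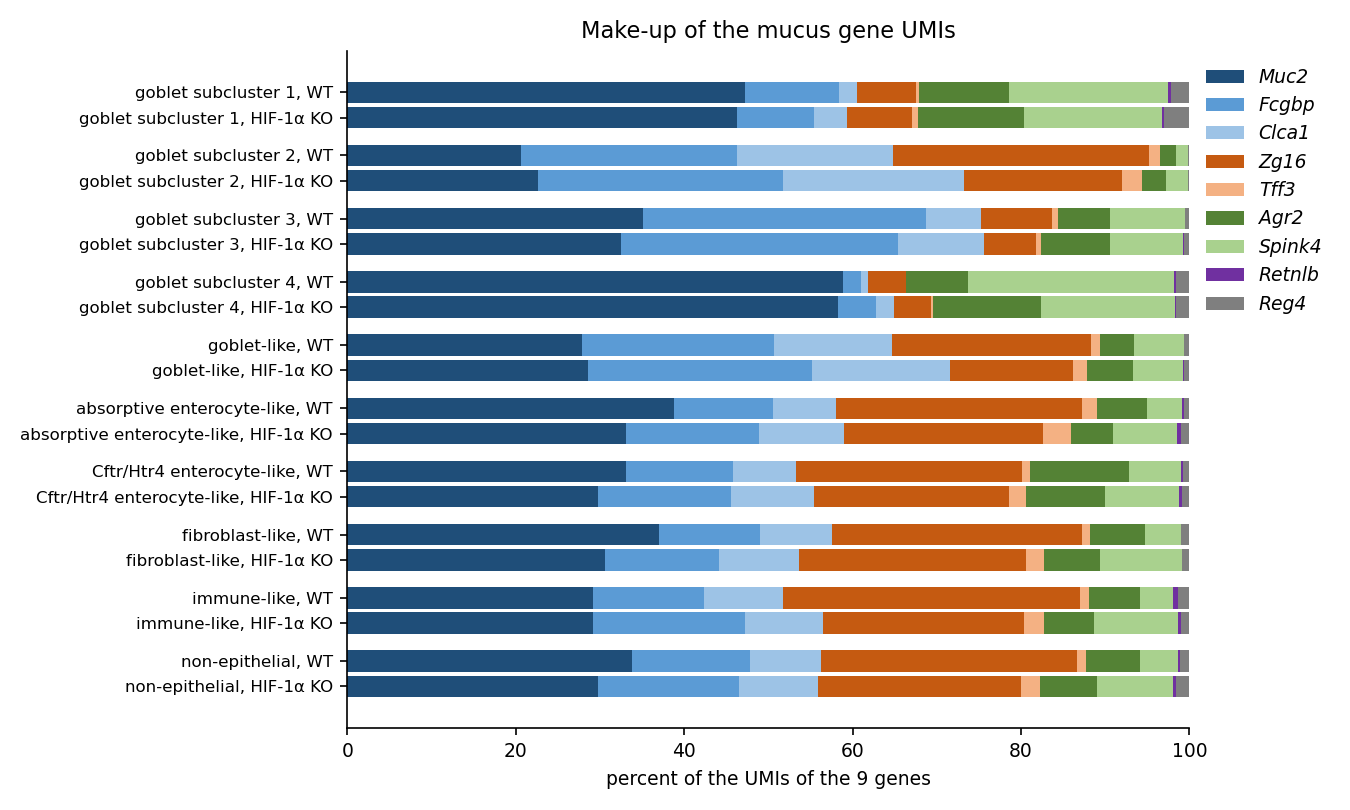
Share of each mucus gene in the UMIs of all 9 genes (percent, stacked bars) for goblet-like subclusters, all goblet-like nuclei, 2 enterocyte-like classes, 2 non-epithelial classes and all non-epithelial nuclei, each in the WT and the HIF-1α KO library. Within the WT library the share of Muc2 is 38.7% in absorptive enterocyte-like, 33.1% in Cftr/Htr4 enterocyte-like and 33.8% in non-epithelial nuclei, whereas goblet-like subclusters differ widely, with Zg16 at 30.4% in WT subcluster 2 and 7.05% in WT subcluster 1.

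In goblet-like nuclei, the summed level of the 9 genes was lower in the knockout library, at 13490 (13390 to 13590) CPM compared with 16550 (16360 to 16740) CPM, a log2 ratio of -0.29 (-0.31 to -0.27) that lay between -0.54 and -0.16 under 15 other ways of processing. Zg16 was the only member past 1.5-fold, and it was lower. With the non-epithelial CPM taken off, Spink4, Retnlb and Reg4 were also past this limit and lower, and after thinning Tff3 was past it and higher. With the non-epithelial UMIs per nucleus taken off instead, Spink4 (log2 ratio -0.47) and Reg4 (-0.39) were within the limit. Retnlb (-0.64) was past it, with a background of only 7 and 16 UMIs. For Reg4, 1 knockout nucleus held 25 of the 77 background UMIs. Without subtraction or thinning, Muc2 and Spink4 were lower by less than Zg16, Fcgbp and Clca1 were nearly level, and Tff3 and Agr2 were higher. Of 9 members tested 0 were called higher and 1 lower, where 11% of the 9223 genes tested were higher and 10.1% were lower, so that the count of members was near that of all genes. The median log2 ratio was -0.14 over the members and 0.05 over all genes tested. In all nuclei the direction was opposite, with 3457 CPM in the WT and 4182 CPM in the knockout library (log2 ratio 0.27, 0.26 to 0.29), alongside the larger share of goblet-like nuclei. There 1 of 9 members tested was higher (Tff3, from 35.3 to 82.7 CPM) and 0 were lower, compared with 13.3% and 16.5% of the 14393 genes tested.

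**Figure D3:**
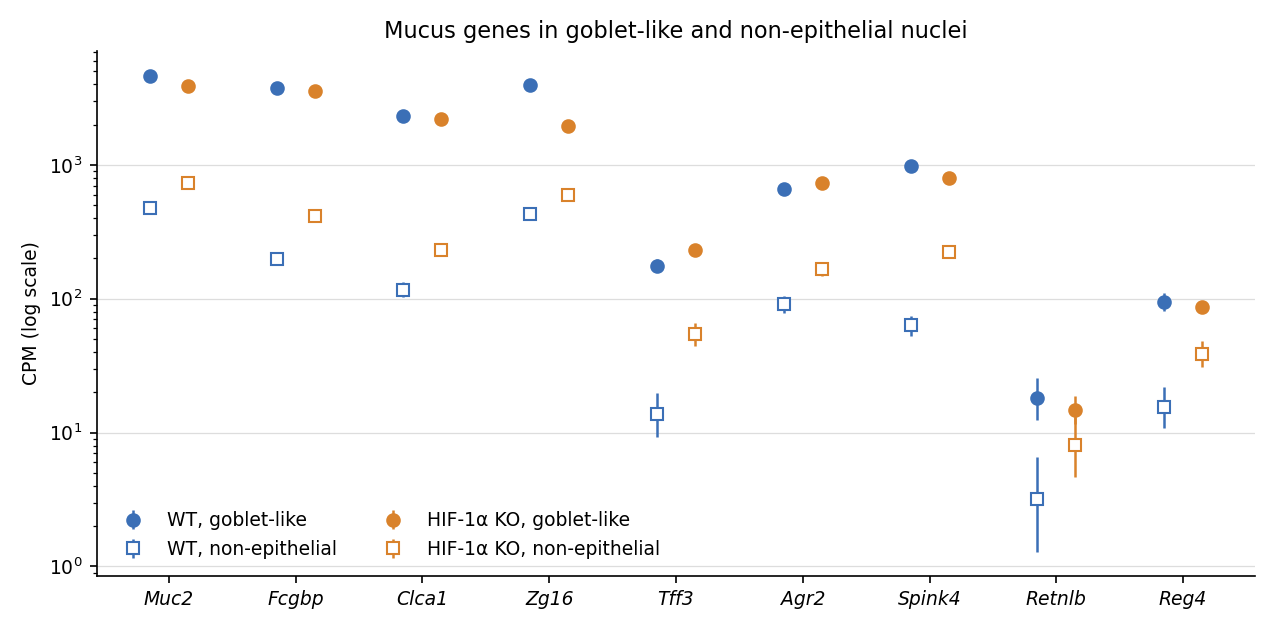
Level of each mucus gene in goblet-like nuclei (filled circles) and in non-epithelial nuclei (open squares) of the WT (blue) and the HIF-1α KO library (orange), in counts per 1000000 UMIs on a log axis with 95% Poisson intervals. The gap between goblet-like and non-epithelial nuclei is narrower in the HIF-1α KO library for each of the 9 genes, and Zg16 has the largest difference between the libraries in goblet-like nuclei.

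The distance between goblet-like and background levels was smaller in the knockout library for every member. Goblet-like nuclei held 11.8 times (11.4 to 12.3) the non-epithelial level of the 9 genes in the WT and 5.49 times (5.33 to 5.65) in the knockout library. In the WT, 8 of 8 members tested were at least 1.5-fold higher in goblet-like nuclei, where 19.9% of the 8795 genes tested were. In the knockout library it was 9 of 9, where 18.9% of 10326 genes were. In UMIs per nucleus, goblet-like nuclei held 14.9 and 9.30 times the non-epithelial sum. Their median depths were 2467 and 4542 UMIs, compared with 1864 and 2110. In CPM, which makes the background of shallow nuclei look larger, the background amounted to 8.46% of the goblet-like level of the sum in the WT and 18.2% in the knockout library. It was lowest for Clca1 (5.04% and 10.4%) and highest for Retnlb (17.7% and 54.6%), with Reg4 next (16.3% and 45.2%). A single nucleus held 25 of the 77 background UMIs of Reg4 in the knockout library. Without the highest nucleus of each library, the background of Reg4 was 14.25 CPM in the WT and 26.47 CPM in the knockout library. With the non-epithelial CPM of the same library taken off, the log2 ratio of the sum was -0.46, and with the non-epithelial UMIs per nucleus taken off it was -0.36.

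Muc2 (ENSMUSG00000025515, chr7:141690340-141754693 of GRCm38, plus strand) encodes the gel-forming mucin itself and lies beside the mucin genes Muc5ac and Muc6. Its level in goblet-like nuclei was 4618 (4518 to 4720) CPM in the WT and 3861 (3806 to 3917) CPM in the knockout library, a log2 ratio of -0.26 (-0.30 to -0.22). A Muc2 UMI was found in 97.6% and 99.5% of goblet-like nuclei, and in 92.5% and 91.0% after thinning to 1000 UMIs, compared with the 37.7% and 56.2% of non-epithelial nuclei. The median goblet-like nucleus had 10 and 16 Muc2 UMIs, at median depths of 2467 and 4542 UMIs. Muc2 was thus present in nearly all goblet-like nuclei of both libraries, and its level was lower in the knockout library under each of 15 other settings, with log2 ratios between -0.44 and -0.18.

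Fcgbp (ENSMUSG00000047730, chr7:28071236-28120862, plus strand) encodes a large protein with repeated von Willebrand-type domains that is part of the secreted mucus. It had 3764 (3674 to 3856) CPM in the WT and 3578 (3525 to 3632) CPM in the knockout library, a log2 ratio of -0.07 (-0.11 to -0.03). Clca1 (ENSMUSG00000028255, chr3:145003817-145032776, minus strand, beside Clca4a and Clca2) encodes a secreted metalloprotease of the mucus. It had 2322 (2252 to 2395) CPM and 2218 (2176 to 2260) CPM, also a log2 ratio of -0.07 (-0.12 to -0.01). Both were therefore nearly level between the libraries. The direction of Fcgbp turned when nuclei were thinned to 1000 UMIs (log2 ratio 0.029), and that of Clca1 turned when each nucleus was weighted equally (0.0291) or the deepest 5% of nuclei were left out (0.0093).

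Zg16 (ENSMUSG00000049350, chr7:127050156-127087328, minus strand) encodes a lectin-like protein that binds the cell wall of Gram-positive bacteria. The gene overlaps the lincRNA gene Gm44939 and the snRNA gene Gm22747 on the plus strand, and whether reads were counted by strand is not given in the sources used here. Its level was 3917 (3826 to 4011) CPM in the WT and 1965 (1926 to 2005) CPM in the knockout library, a log2 ratio of -0.995 (-1.04 to -0.95). This was the largest difference among the members in goblet-like nuclei. The UMIs of Zg16 were, however, held by few nuclei. The 10 goblet-like nuclei with the most Zg16 UMIs held 46.4% of them in the WT and 40.3% in the knockout library, and the single highest nucleus had 836 and 1038 UMIs. These 10 nuclei all belonged to subcluster 2, described below, where the median WT nucleus had 9.5 UMIs, the median knockout nucleus had 10, and the nucleus at the 90th percentile had 56.6 and 33.8. The counting interval does not cover this spread between nuclei. Zg16 was lower in the knockout library under each of 15 other settings, with log2 ratios between -1.53 and -0.64, and the smallest of these was found without the deepest 5% of nuclei. In non-epithelial nuclei Zg16 was higher in the knockout library, at 593 compared with 427 CPM.

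Tff3 (ENSMUSG00000024029, chr17:31125306-31129646, minus strand), the trefoil peptide that is secreted with mucin and supports repair of the epithelium, had 177 (158 to 198) CPM in the WT and 229 (216 to 243) CPM in the knockout library, a log2 ratio of 0.38 (0.19 to 0.56). It had a UMI in 23.4% and 35.5% of goblet-like nuclei, or in 11.5% and 13.8% after thinning. With the non-epithelial CPM taken off, the log2 ratio was 0.10, and it was -0.14 when nuclei were assigned one by one from their marker scores. Agr2 (ENSMUSG00000020581, chr12:35992907-36004087, plus strand), the disulfide isomerase of mucin folding, had 659 (622 to 698) CPM and 736 (712 to 761) CPM, a log2 ratio of 0.16 (0.06 to 0.26), and 0.01 with the non-epithelial CPM taken off. With the non-epithelial UMIs per nucleus taken off instead, the log2 ratios were 0.25 for Tff3 and 0.12 for Agr2. The higher values of both genes in the knockout library thus shrank by an amount that depended on how the background was taken off.

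Spink4 (ENSMUSG00000028415, chr4:40920052-40931395, plus strand) had 974 (928 to 1021) CPM in the WT and 799 (774 to 825) CPM in the knockout library, a log2 ratio of -0.29 (-0.37 to -0.20). Its background was among those that differed most between the libraries. With the non-epithelial CPM taken off the log2 ratio was -0.66, and with the UMIs per nucleus taken off it was -0.47. Reg4 (ENSMUSG00000027876, chr3:98222156-98236748, plus strand), a C-type lectin-like protein also known from enteroendocrine cells, had 95.2 (81.3 to 111) CPM and 86.1 (78.0 to 94.7) CPM, and its ratio of -0.14 had an interval of -0.41 to 0.12. Retnlb (ENSMUSG00000022650, chr16:48816856-48818892, plus strand), a resistin-like protein that acts on bacteria and is induced by type 2 cytokines, was rare, with 32 WT and 72 knockout UMIs. It had 18.1 (12.4 to 25.6) CPM and 14.8 (11.6 to 18.6) CPM, and its ratio of -0.29 had an interval of -0.91 to 0.36. A difference in Retnlb or Reg4 was thus not detectable at this depth. Reg4 was also seen in 1 knockout nucleus of the enteric neuron and glia-like class with 25 UMIs, which held 83.3% of the 30 Reg4 UMIs of that class.

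**Figure D4:**
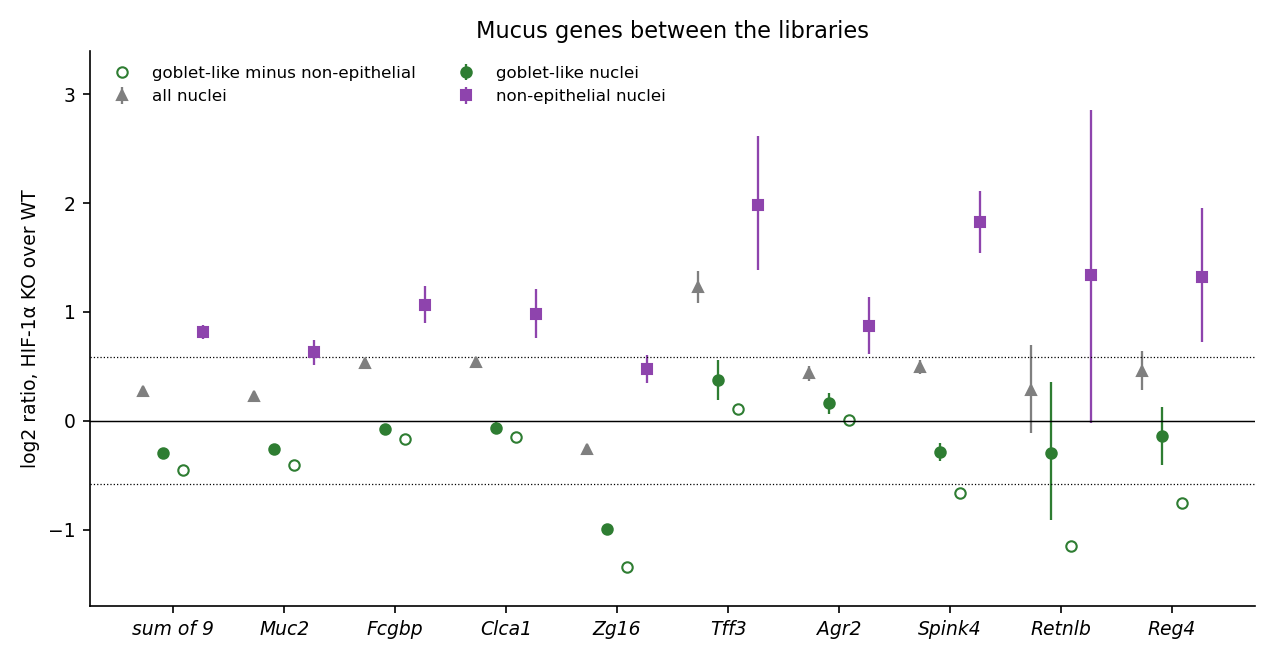
Log2 ratio of HIF-1α KO over WT for the sum and for each mucus gene in all nuclei (grey triangles), goblet-like nuclei (green circles) and non-epithelial nuclei (purple squares), with 95% conditional intervals, and in goblet-like nuclei after the non-epithelial level was taken off (open circles). Dotted lines mark 1.5-fold in either direction, and non-epithelial nuclei lie above 0 for all 9 genes while the goblet-like value of Zg16 lies at -0.995.

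When goblet-like nuclei were clustered again without the 9 genes, 4 subclusters were found, and the members fell into opposite patterns across them. Subcluster 1, led by Dlg2, Sorcs2 and Tiam1, held 286 WT and 353 knockout nuclei, or 49.7% (45.5 to 53.8%) and 37.5% (34.4 to 40.7%) of goblet-like nuclei. Subcluster 2, led by Ddx60, Ido1 and Saxo1, held 202 and 317 nuclei, or 35.1% and 33.7%. Subcluster 3, led by St6gal1, Nek10 and Arhgap20, held 51 and 223 nuclei, or 8.85% and 23.7%, and subcluster 4, led by the imprinted RNAs Rian, Meg3 and Mirg, held 37 and 49 nuclei. Subcluster 2 had the highest summed level, at 26140 CPM in the WT and 21340 CPM in the knockout library, and held 45.3% and 43.3% of all UMIs of the 9 genes in its library. Subcluster 1 had the lowest, at 7402 and 6029 CPM.

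Fcgbp, Clca1, Zg16 and Tff3 were concentrated in subcluster 2. Clca1 had 4837 CPM in subcluster 2 of the WT and 154 CPM in subcluster 1, and 4574 and 231 CPM in the knockout library. Zg16 had 7959 and 522 CPM in the WT and 4018 and 467 CPM in the knockout library. In subcluster 1, Clca1, Zg16 and Tff3 lay at or near the non-epithelial level, which was 117, 427 and 13.7 CPM in the WT and 231, 593 and 54.1 CPM in the knockout library. Spink4 and Reg4 had the opposite order. Spink4 had 352 CPM in subcluster 2 and 1396 CPM in subcluster 1 of the WT, and 550 and 985 CPM in the knockout library, and it was highest in subcluster 4, at 2529 and 1136 CPM. Reg4 had 32.8 and 165 CPM in the WT and 20.5 and 185 CPM in the knockout library, the former in subcluster 2. Muc2 and Agr2 varied least. Muc2 ran from 3496 to 6094 CPM over the 4 subclusters of the WT and from 2793 to 4826 CPM in the knockout library. Agr2 lay between 499 and 795 CPM in the WT and between 620 and 912 CPM in the knockout library.

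Set against each other within a library, subcluster 2 was at least 1.5-fold above subcluster 1 in 5 of 8 members tested in the WT (Muc2, Fcgbp, Clca1, Zg16 and Tff3) and below it in 3 (Agr2, Spink4 and Reg4), where 17.3% of the 4965 genes tested were above and 20.5% below. In the knockout library 6 of 9 were above, the same 5 and Retnlb, and 2 were below (Spink4 and Reg4), where 13% of the 7291 genes tested were above and 25.8% below. Muc2, Fcgbp, Clca1, Zg16 and Tff3 were thus above and Spink4 and Reg4 below in both libraries, whereas Retnlb had 20.5 CPM in subcluster 1 and 17.6 CPM in subcluster 2 of the WT, from 14 UMIs each. Subcluster 3 was intermediate, with Fcgbp at 4289 and 3491 CPM and Clca1 at 841 and 1087 CPM.

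**Figure D5:**
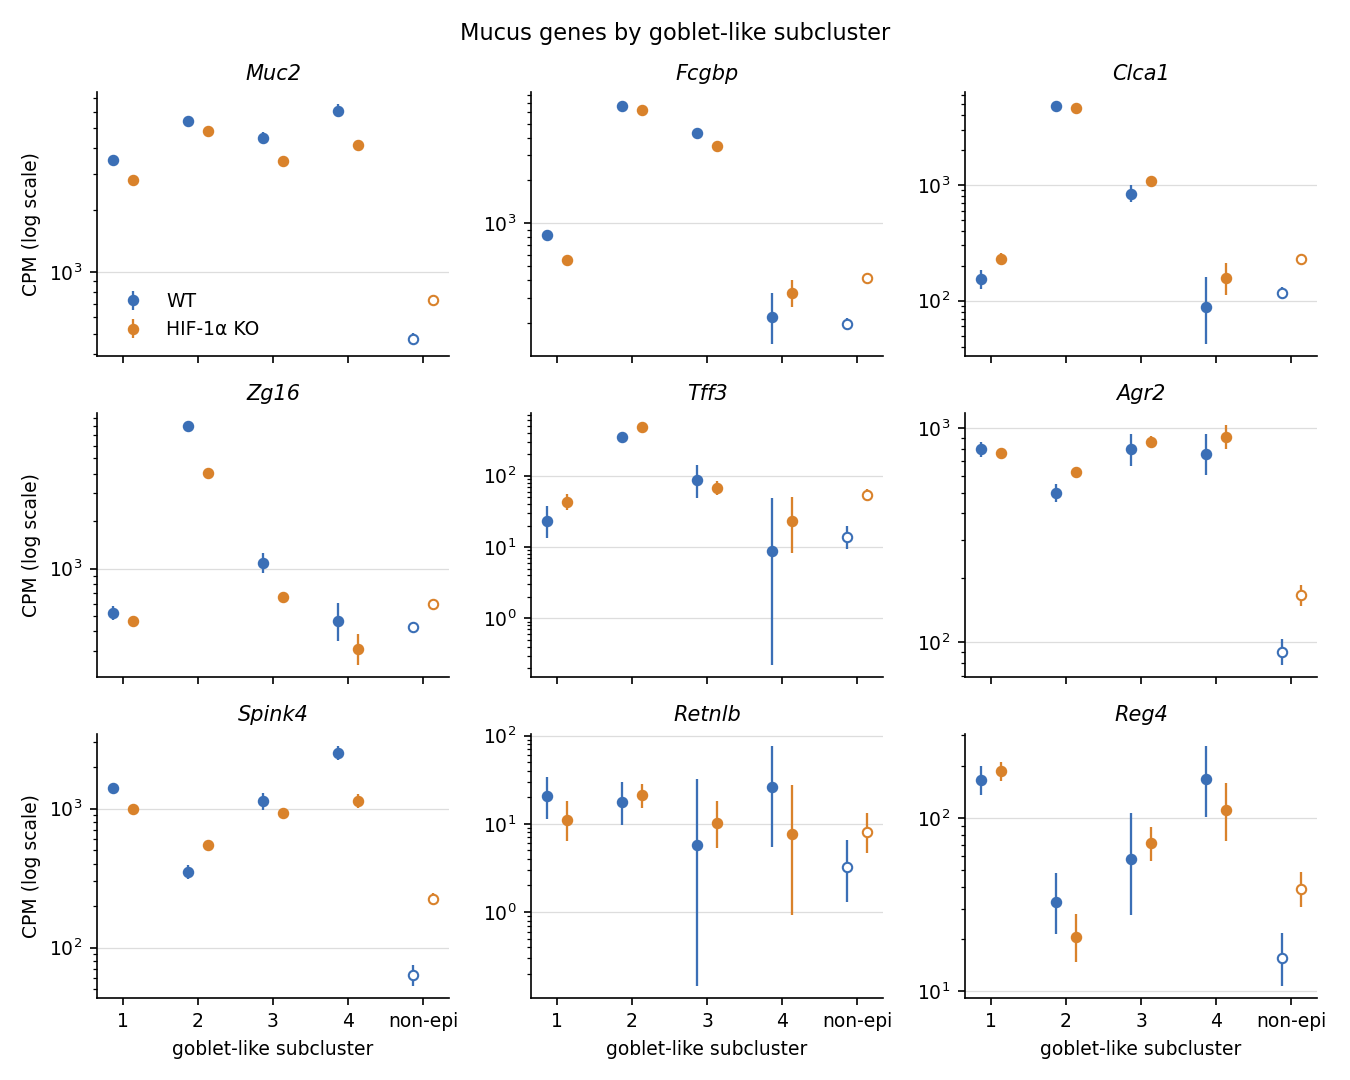
Level of each mucus gene in the 4 goblet-like subclusters (filled circles) and in non-epithelial nuclei (open circles) of the WT (blue) and the HIF-1α KO library (orange), in counts per 1000000 UMIs on log axes that differ between genes, with 95% Poisson intervals. Clca1, Zg16 and Tff3 peak in subcluster 2 and reach the non-epithelial level in subcluster 1, whereas Spink4 and Reg4 are lowest in subcluster 2.

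Between the libraries, Zg16 and Muc2 were lower in the knockout library in each of the 4 subclusters, though for Zg16 in subcluster 1 the interval held 0 (log2 ratio -0.16, -0.35 to 0.03), and in subclusters 1 and 4 of the knockout library Zg16 (467 and 308 CPM) lay below the non-epithelial level. In subcluster 2 the log2 ratio of Zg16 was -0.99 (-1.03 to -0.94) and that of Muc2 was -0.16 (-0.21 to -0.11). Of 9 members tested in subcluster 2, 1 was higher (Spink4) and 2 were lower (Zg16 and Reg4), where 11.3% of the 6430 genes tested were higher and 10.2% were lower. The call of Reg4 rested on 26 WT and 41 knockout UMIs, and without the WT and the knockout nucleus that held the most of them the levels were 21.6 and 19.5 CPM, a log2 ratio of -0.15. Of 8 members tested in subcluster 1, 2 were higher (Clca1 and Tff3) and 1 was lower (Fcgbp, from 831 to 552 CPM), where 12.9% of the 6225 genes tested were higher and 6.52% were lower. In subcluster 1 of the knockout library Clca1 (231 CPM) and Tff3 (43.2 CPM) were not above the non-epithelial CPM. With the non-epithelial UMIs per nucleus taken off instead, 34.2 CPM of Clca1 remained in the WT and 57.7 CPM in the knockout library, and 9.41 and 2.65 CPM of Tff3. With both libraries given the same mix of subclusters, the log2 ratio of the sum was -0.30 and that of Zg16 was -0.92, close to the values without this step.

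Across single goblet-like nuclei, each thinned to 1000 UMIs, the strongest relations were among Fcgbp, Clca1, Zg16 and Tff3, apart from Fcgbp with Tff3 in the knockout library. The correlation of log counts was 0.60 in the WT and 0.46 in the knockout library between Clca1 and Zg16, 0.56 and 0.49 between Fcgbp and Clca1, 0.51 and 0.38 between Fcgbp and Zg16, 0.44 and 0.47 between Zg16 and Tff3, 0.40 and 0.32 between Clca1 and Tff3 and 0.31 and 0.22 between Fcgbp and Tff3, over 576 and 941 nuclei that share a library and a depth. The highest correlations of Muc2, both with Zg16, were 0.28 and 0.29, the latter above that of Fcgbp with Tff3 in the knockout library. The sum of the 9 genes made up 1.06% of the UMIs of the median goblet-like nucleus in the WT and 0.90% in the knockout library. From the 10th to the 90th percentile it ran from 0.37% to 2.55% and from 0.38% to 2.32%, so that the spread among nuclei of a library was far wider than the difference between the libraries.

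The genes whose level followed the sum of the 9 most closely over 20 points (10 classes in 2 libraries, which share library depth and background) were Spink1, with a correlation of 0.97 on the log2 scale, Bcas1 with 0.96 and Sval1 with 0.95, among 7691 genes with at least 500 UMIs. Sytl2, Ffar4, Fer1l6, Best2, Capn9, Sytl5 and Rep15 came next. Of these 10 genes Bcas1, Sytl2, Fer1l6, Best2 and Capn9 had also served to name goblet-like nuclei. Bcas1 was also the gene most like Muc2, Fcgbp and Clca1, Spink1 the one most like Zg16, and Spdef, a goblet cell transcription factor, the one most like Reg4. Sval1 was most like Tff3 and Spink4, Ano7 most like Agr2 and Ido1 most like Retnlb. Spink1, which encodes a secreted trypsin inhibitor, was lower in knockout goblet-like nuclei, at 1412 compared with 2054 CPM (log2 ratio -0.54), whereas Bcas1 was higher, at 1164 compared with 879 CPM.

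Genes that act on the mucus genes or their products in goblet cells were read from 5 lists. Atoh1, Spdef, Foxa3, Creb3l1, Sytl2, Fer1l6 and Best2 among them had also served to name goblet-like nuclei. Of 11 regulators of goblet fate, all tested, 1 was called higher and 3 lower, with a median log2 ratio of 0.13, where 11% and 10.1% of all genes tested in goblet-like nuclei were. With lists of this size, a count of 1 in either direction is near that share. Atoh1, which commits cells to the secretory lineage, had 92.4 CPM in the WT and 52.2 CPM in the knockout library (log2 ratio -0.82, -1.11 to -0.53), and Foxa2 had 65.7 and 38.0 CPM (-0.79). Hes1, the Notch target that represses Atoh1, had 47.6 and 30.4 CPM, and non-epithelial nuclei had 47.5 and 42.9 CPM. The maturation factors Spdef (317 and 346 CPM), Klf4 (287 and 252 CPM), Creb3l1 (458 and 512 CPM) and Foxa3 (231 and 305 CPM) were not past 1.5-fold, and Creb3l4, with 18 and 106 UMIs, was called higher. Atoh1 and Foxa2 were thus lower beside Spdef, Creb3l1 and Foxa3 that were not.

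Of 17 genes of mucin folding and glycosylation 14 were tested, of which 1 was higher and 3 were lower (median -0.10), again beside 11% and 10.1% of all genes. Ern2, the stress sensor of the endoplasmic reticulum in mucous cells, was higher at 323 compared with 199 CPM (log2 ratio 0.70, 0.53 to 0.87). Galnt4 (from 48.7 to 25.9 CPM), which starts O-glycan chains, C1galt1c1 (from 32.3 to 16.2 CPM), the chaperone of the enzyme that extends them, and Gcnt3 (from 79.3 to 48.9 CPM), which branches them, were lower. The transferases at the highest levels, Galnt7 (2150 and 2295 CPM), C1galt1 (611 and 688 CPM) and Galnt12 (494 and 576 CPM), were not called. Of 11 genes of granule release 0 were higher and 1 was lower, beside 11% and 10.1% of all genes, so that the count of 1 is near the share. The lower gene was Best2, a bicarbonate channel (160 and 86.3 CPM, log2 ratio -0.89). The median log2 ratio of this list was 0.27. Sytl2, Fer1l6, Cadps2 and Unc13b, which act in vesicle docking and fusion, had log2 ratios between 0.27 and 0.52.

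Of 13 other secreted mucus proteins only 4 had enough UMIs, and 1 was called higher (11% of all genes were), Tgm3, a transglutaminase (19.8 and 46.8 CPM), which lay below its non-epithelial level of 35.7 and 72.3 CPM. Lypd8, which binds flagellated bacteria, had 873 and 1121 CPM, above its non-epithelial level of 332 and 716 CPM. Dmbt1 had 344 and 436 CPM, below its non-epithelial level. Klk1 had 26.1 and 38.2 CPM, above its non-epithelial level of 3.2 and 23.2 CPM. For Lypd8 and Klk1 the non-epithelial level was thus also higher in the knockout library, and by more CPM than the goblet-like level. Of 18 relatives of the members 6 were tested and 2 were called higher (compared with the same 11%), Clca4a (60.1 and 107 CPM) and Clca4b (53.3 and 122 CPM). Both lay below their non-epithelial level, in the WT (63.1 and 74.5 CPM, for Clca4a only slightly) and in the knockout library (149 and 188 CPM). Clca3b (60.6 and 80.1 CPM) also lay below its non-epithelial level (95.5 and 153 CPM), whereas Spink1 stood above its own (201 and 322 CPM). The median log2 ratios, with no background taken off, were 0.46 and 0.48 for these last lists, compared with 0.05 over all genes tested.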

How the data were processed

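Single-nucleus RNA was measured in 2 pools of frozen mouse colon, WT and HIF-1α KO, 1 library each. The authors aligned the reads to mm10 with Cell Ranger 7.0.1 (version from the submitters' processing notes) and deposited raw counts of UMIs per gene and nucleus. Whether intronic reads were counted is not given in the sources used here.

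Nuclei with 400 to 5000 genes and at most 10% mitochondrial UMIs were kept, which left out 12 of 4896 WT and 70 of 4772 HIF-1α KO barcodes. Of 2000 variable features the members among them were removed, which left 1992. The libraries were integrated by anchors in Seurat 5.3.0 (R 4.3.3, 30 principal components, resolution 1, seed 1), which gave 24 clusters. A cluster took the name of the marker list with the highest mean log2 ratio (10 CPM added) if at least 3 markers reached a log2 ratio of 1 and were found in 10% of nuclei, and no other list had more markers among its 10 leading genes. Goblet-like nuclei were clustered again at a resolution of 0.25, chosen after the data were seen. Doublets were not called beyond the upper limit on genes. The members, lists and markers were chosen with earlier results of these data known.

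Sums of UMIs have exact 95% Poisson intervals, log2 ratios exact conditional intervals and shares exact (Clopper-Pearson) binomial intervals. All cover counting error only. Named genes are the 9 members, the list genes with at least 50 UMIs in goblet-like nuclei that passed 1.5-fold or were among the 4 highest of their list, the genes of most similar pattern (10 for the sum, 1 for each member), and the 3 leading genes of each subcluster. TMM factors were from edgeR 4.0.16. Python 3.11.15, numpy 2.4.6, pandas 2.3.3 and scipy 1.17.1 were used. The calling rule was tested on simulated counts. Positions are from GENCODE M21 (GRCm38). Alternatives were another resolution, no integration, marker scores per nucleus, equal weights, thinning to 1000 UMIs, other denominators, all barcodes, no deep nuclei, background subtraction and other limits for calls. Settings with the same mix of subclusters, without unnamed clusters, without the highest nucleus or with UMIs per nucleus subtracted were added after the data were seen.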

Additional observations from a re-analysis of the deposited data

Results flagged for a closer look

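Clca1 and Spink4 moved in opposite directions in different goblet-like subclusters, with intervals that excluded 0 on both sides. With 1 library per genotype these differences between subclusters were not tested. Clca1 had a log2 ratio of knockout over WT of 0.59 in subcluster 1 and 0.37 in subcluster 3, compared with -0.08 in subcluster 2. In subcluster 1 its level in the knockout library (231 CPM) equalled that of non-epithelial nuclei (231 CPM), and in subcluster 3 it rested on 146 WT and 1268 knockout UMIs and stood above the background in both libraries. With the non-epithelial CPM taken off, 36.5 CPM remained in subcluster 1 of the WT and nothing in the knockout library (-0.2 CPM). With the non-epithelial UMIs per nucleus taken off instead, the log2 ratio in subcluster 1 was 0.76, from 34.2 and 57.7 CPM. The direction in subcluster 1 thus depended on how the background was taken off. In subcluster 3 it was 0.24 with the non-epithelial CPM and 0.33 with the UMIs per nucleus taken off. A single nucleus held 42 of the 146 WT UMIs of subcluster 3, and without the highest nucleus of each library the log2 ratio there was 0.77.

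Spink4 had a log2 ratio of 0.65 in subcluster 2, compared with -0.50 in subcluster 1, -0.30 in subcluster 3 and -1.15 in subcluster 4. With the non-epithelial CPM taken off, the value in subcluster 2 was 0.18 and the others were -0.81, -0.62 and -1.43. With the non-epithelial UMIs per nucleus taken off, it was 0.50, compared with -0.70, -0.46 and -1.30. The size of the difference in subcluster 2 thus moved with the way the background was removed, and its direction did not. In subcluster 2 of the WT library the 10 nuclei with the most Spink4 held 50.2% of its 279 UMIs.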

How the results depend on the processing

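No paired analysis was possible because each genotype had 1 library and no result came from a test. In goblet-like nuclei the summed level, Muc2, Zg16, Agr2 and Spink4 kept their direction under all 15 settings. The log2 ratio of the sum was -0.54 with nuclei assigned by marker score, -0.17 with equal weights, -0.18 after thinning, -0.25 with all barcodes, -0.16 without the deepest 5% of nuclei, -0.34 with TMM, -0.27 without the nucleus with the most UMIs, -0.24 with the same mix of 6 finer subclusters, -0.46 with the non-epithelial CPM subtracted and -0.36 with its UMIs per nucleus subtracted. Directions turned for Tff3 by marker score (-0.14), Fcgbp after thinning (0.029) and Clca1 with equal weights (0.0291), without the deepest nuclei (0.0093) and with the same mix of 6 finer subclusters (0.0296). Retnlb and Reg4, whose intervals held 0, ranged from -1.15 to 0.17 and from -0.76 to 0.145. In all nuclei the sum was 0.43 with equal weights, 0.42 after thinning, 0.36 without the deepest nuclei and 0.24 without the unnamed clusters. In non-epithelial nuclei it was 0.93 without integration, 0.34 by marker score, 1.06 with equal weights and 1.04 after thinning. Goblet-like over non-epithelial nuclei was 3.18 and 2.30 by marker score (WT and HIF-1α KO), 3.12 and 1.88 with equal weights, 3.11 and 1.89 after thinning and 3.26 and 2.25 without the deepest nuclei, and for HIF-1α KO 2.28 without integration and 2.56 with all barcodes. The share of goblet-like nuclei had a log2 ratio of 1.18 by marker score. Past the limit in goblet-like nuclei were 0 members at 2-fold, 2 at the lowest limit tried (Zg16 and Tff3) and 2 after thinning (the same). With the non-epithelial CPM subtracted 4 were past it (Zg16, Spink4, Retnlb and Reg4), where 30.5% of the 3120 genes tested were higher and 20.2% lower. With the UMIs per nucleus subtracted, Spink4 (-0.47) and Reg4 (-0.39) were within the limit. The causes of these moves were not tested. With 1 library per genotype, differences between animals and between nuclei isolations cannot be told apart from the genotype, and the 32 WT UMIs of Retnlb limit what its ratio can show.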
